A study of Rattus norvegicus with 9 samples.

Results

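The drug-metabolising enzymes of the ileum were taken as the genes whose symbols begin with Cyp1 to Cyp4 and a letter, with Ugt1, Ugt2, Sult, Gsta, Gstm, Gstp, Gstt, Gsto, Gstk or Mgst. The rule found 110 genes among the 17145 rows that both deposited tables hold. They are 55 cytochromes P450 (3 Cyp1, 32 Cyp2, 5 Cyp3 and 15 Cyp4), 17 glucuronosyltransferases (8 Ugt1 and 9 Ugt2), 14 sulfotransferases (7 Sult1, 4 Sult2 and 3 others) and 24 glutathione transferases (5 Gsta, 8 Gstm, 1 Gstp, 4 Gstt, 2 Gsto, 1 Gstk and 3 Mgst). No measured value entered the rule.

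These enzymes act on swallowed drugs, plant compounds and bile constituents as they enter the gut wall. Cytochromes P450 oxidise them in the endoplasmic reticulum, with electrons from the reductase Por, and the transferases then attach glucuronic acid, sulfate or glutathione so that carriers can export the product. In the gut the Cyp3a enzymes are best known for limiting how much of an oral drug reaches the blood, and the nuclear receptors Nr1i2 (PXR) and Nr1i3 (CAR), the aryl hydrocarbon receptor Ahr and the factor Nfe2l2 (Nrf2) are known to switch many of the genes on.

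The ileum, the far end of the small intestine, was sampled for total RNA. All groups were Otsuka Long-Evans Tokushima fatty animals, rats that become obese and diabetic and lack a working cholecystokinin receptor, a defect that the sham group shares. The 3 groups of 3 samples were Roux-en-Y gastric bypass (RYGB) with FDG decreased, RYGB with FDG increased, and a sham operation, all sampled 1 month after surgery. FDG is read as the glucose analogue fluorodeoxyglucose, which the labels do not spell out, and the labels give neither the animals' ages nor whether replicates were separate animals, so p-values measure the spread between these samples. The treatment protocol of the sham samples also names the Roux-en-Y operation, while their titles and treatment labels say sham. One table holds FDG-decreased and FDG-increased ileum and the other FDG-increased and sham ileum, in FPKM, which counts fragments per transcript length and per sequenced library, so that levels of different genes can be set side by side.

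Across the 12 columns the enzymes made up 0.467 to 1.181% of all FPKM, and 55 to 65 of them reached 1 FPKM. The 12 columns hold 10 distinct libraries, since 2 FDG-increased libraries stand in both tables, each table has a further one of its own, and the labels list 3. Sham replicate 1 stood apart. Its Fabp6, the bile acid binding protein of the ileum, was 22.6 FPKM, against 8375 and 11347 FPKM in the other sham libraries. Its summed upper-intestine markers (5 of 6 found) were 424 FPKM, against 51.0 and 24.8 FPKM. Results that rest on this library are therefore also given without it. Hepatocyte markers (7 of 7 found) summed to between 0.414 and 7.87 FPKM in every library. Tests took in each gene that averaged 1 FPKM or more in a table, 10739 in the first and 10801 in the second, with limma on log2(FPKM + 1). Log2 differences, and counts of genes with a higher or lower mean, use that scale, on which changes of genes near the floor look too small.

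Of the 110 enzymes, 61 passed that floor in the first table and 62 in the second, 60 of them in both. A further 32 were above 0 somewhere but below the floor in both tables, and 15 were listed at 0 in all columns. The liver P450s Cyp1a2, Cyp2a1, Cyp2a2, Cyp2c12 and Cyp2c13 were among the genes listed at 0, together with Sult1e1 and the steroid sulfotransferases Sult2a1, Sult2a2 and Sult2a6. The most abundant member in all groups was Mgst3, a membrane-bound transferase that reduces lipid peroxides. It averaged 560.3 ± 128 FPKM in FDG-decreased and 474.6 ± 138 FPKM in FDG-increased ileum of the first table (SD, n = 3 each). In the second table it averaged 490.2 ± 136 FPKM in FDG-increased and 604.2 ± 480 FPKM in sham ileum (SD, n = 3 each). The sham mean was 328.4 FPKM without replicate 1, below that of FDG-increased ileum. After RYGB, Mgst1, Mgst2 and Gstp1 came next by mean among the glutathione transferases, and Cyp3a9 and Cyp3a62 had the highest means of the P450s. In sham ileum Gsta5 came second to Mgst3, at 446.2 FPKM with replicate 1 and 110.6 FPKM without it. With all sham libraries Cyp4f1 had the highest P450 mean, at 133.0 FPKM, ahead of Cyp3a9 at 121.5 FPKM. Both were over 2 times both other sham libraries in replicate 1, and Cyp3a9 was ahead of Cyp4f1 without it. Ugt2b10 and Ugt1a1 had the highest means of the glucuronosyltransferases in all groups. Transcripts of the Ugt1a locus differ only in their first exon, and Gsta2 and Gsta5, the Cyp2d genes and Cyp2b1 with Cyp2b2 are close copies, so the counting could move reads between these members and their separate values are uncertain.

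**Figure D1:**
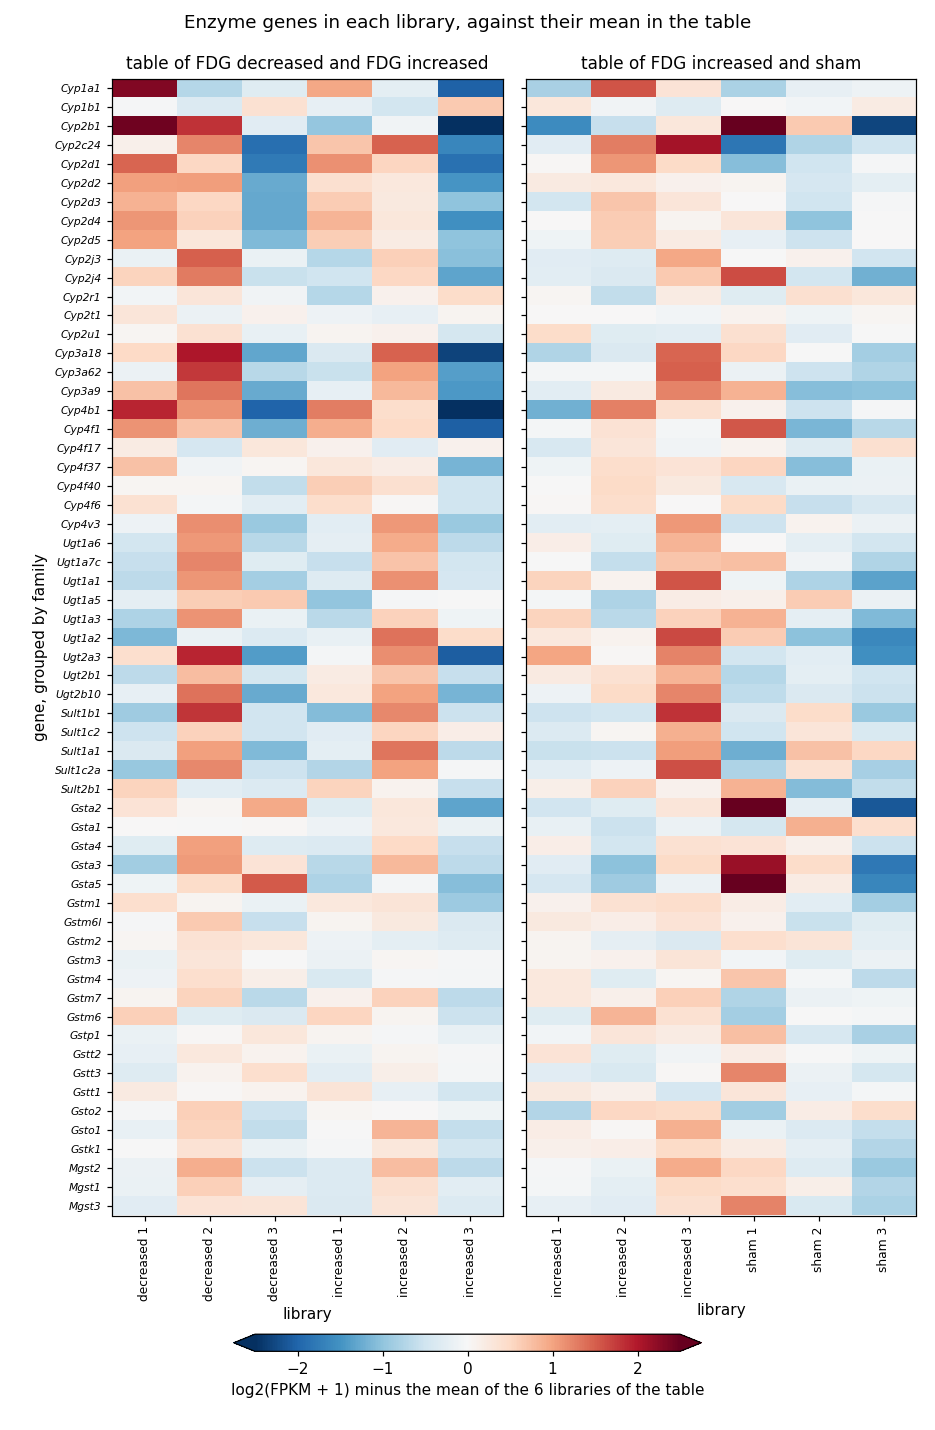
Values of the 60 enzymes past the floor in both tables, as log2(FPKM + 1) minus the mean of the 6 libraries of a table (columns are libraries, rows are genes grouped by family, colours end at the limits of the bar). Same-numbered FDG-decreased and FDG-increased libraries look alike on the left, and sham replicate 1 stands out on the right for Cyp2b1, Gsta2 and Gsta5.

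Promoters of 94 members were found in the RefSeq table of the rat (GRCr8), and the 250 bases before the start were searched on both strands for a pair of motifs picked after the sequences were seen. GTTAAT, which reads as ATTAAC on the opposite strand, is part of the site of HNF1, a factor of gut and liver epithelium. It was present in 6.45% of 33469 rat promoters, in 12 of 94 member promoters (12.8%) and in 5 of 14 Ugt promoters (35.7%). Its shares were 8.51% of Cyp promoters, 15.4% of Sult promoters and 5.0% of glutathione transferase promoters. AGTTCA, which reads as TGAACT on the opposite strand, is part of the sites of nuclear receptors such as PXR and CAR. It was present in 12.2% of all promoters and in 22 of 94 member promoters (23.4%). By family it was in 12 of 47 Cyp (25.5%), 4 of 13 Sult (30.8%), 2 of 14 Ugt (14.3%) and 4 of 20 glutathione transferase promoters (20.0%). The windows of Cyp2b1 and Cyp4b1 hold neither motif. The letters of one motif do not overlap the other. The sequences below belong to the members that the results turn on and that hold a match, 5′ to 3′ on the gene's strand. Capitals mark GTTAAT in the Ugt sequences and AGTTCA in the Cyp sequences, on either strand, and a further AGTTCA match of Ugt1a2 is left in lower case. A match is a description of letters and not of binding. The Ugt promoters with GTTAAT lie at chr9:96248893-96249142 (plus strand) for Ugt1a1, chr9:96238769-96239018 (plus strand) for Ugt1a2 and chr14:20851720-20851969 (plus strand) for Ugt2a3. The matches begin 63 bases before the start of Ugt1a1, 121 and 104 bases before that of Ugt1a2 and 55 bases before that of Ugt2a3.
Ugt1a1: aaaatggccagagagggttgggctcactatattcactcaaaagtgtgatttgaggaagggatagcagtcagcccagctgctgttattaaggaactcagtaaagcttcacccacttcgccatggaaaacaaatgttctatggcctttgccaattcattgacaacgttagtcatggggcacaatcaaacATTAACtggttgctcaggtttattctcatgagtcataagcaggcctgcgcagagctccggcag
Ugt1a2: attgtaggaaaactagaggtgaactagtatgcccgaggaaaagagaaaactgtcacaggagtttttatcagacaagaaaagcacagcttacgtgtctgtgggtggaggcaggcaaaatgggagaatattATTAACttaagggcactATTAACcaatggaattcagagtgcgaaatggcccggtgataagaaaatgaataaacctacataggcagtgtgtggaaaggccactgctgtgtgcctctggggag
Ugt2a3: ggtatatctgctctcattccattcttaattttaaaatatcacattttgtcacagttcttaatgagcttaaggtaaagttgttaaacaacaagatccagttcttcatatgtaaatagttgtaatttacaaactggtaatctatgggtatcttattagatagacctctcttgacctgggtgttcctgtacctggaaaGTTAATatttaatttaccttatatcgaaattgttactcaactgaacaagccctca
The Cyp promoters with AGTTCA lie at chr5:116360500-116360749 (minus strand) for Cyp2j3, chr5:116323043-116323292 (minus strand) for Cyp2j4 and chr12:13994062-13994311 (plus strand) for Cyp3a18. Their matches begin 35 bases before the start of Cyp2j3, 219 bases before that of Cyp2j4, and 153 and 98 bases before that of Cyp3a18.
Cyp2j3: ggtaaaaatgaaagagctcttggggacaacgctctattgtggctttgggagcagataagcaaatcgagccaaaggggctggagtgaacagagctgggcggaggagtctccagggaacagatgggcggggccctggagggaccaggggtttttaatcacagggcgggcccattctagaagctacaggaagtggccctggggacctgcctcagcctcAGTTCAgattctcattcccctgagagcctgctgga
Cyp2j4: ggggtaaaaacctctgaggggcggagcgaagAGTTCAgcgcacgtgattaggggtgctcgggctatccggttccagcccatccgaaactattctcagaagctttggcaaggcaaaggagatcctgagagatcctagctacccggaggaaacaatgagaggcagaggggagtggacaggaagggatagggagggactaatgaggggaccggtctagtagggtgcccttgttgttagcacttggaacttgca
Cyp3a18: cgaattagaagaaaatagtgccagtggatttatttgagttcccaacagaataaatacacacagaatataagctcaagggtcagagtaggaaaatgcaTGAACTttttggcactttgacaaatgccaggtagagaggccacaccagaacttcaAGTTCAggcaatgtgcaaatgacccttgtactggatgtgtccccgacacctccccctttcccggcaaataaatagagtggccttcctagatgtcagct

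The first comparison set RYGB ileum with FDG decreased against RYGB ileum with FDG increased, which asks how gut that differs in FDG after the same operation differs in its enzymes. P450 levels were mostly higher with FDG decreased: 23 of 25 tested Cyp members had a higher mean, as did 19 of 22 glutathione transferases, 4 of 9 glucuronosyltransferases and 1 of 5 sulfotransferases, where 55.2% of all genes tested had a higher mean. The median log2 difference was 0.18 over the Cyp members, 0.13 over the glutathione transferases, -0.03 over the Ugt members and -0.16 over the Sult members, against 0.02 over all genes. Without FDG-increased replicate 3 the family medians were -0.009 for Cyp2, -0.04 for Cyp3 and -0.37 for Cyp4, against 0.17, 0.62 and 0.08 with it. That fit leaves FDG-decreased replicate 3, low for many P450s, without its partner. Pair by pair all 3 tested Cyp3 members were higher with FDG decreased, by 0.17 to 1.02 on the log2 scale. The Cyp2 and Cyp4 members were mixed. Cyp2j3 and Cyp4b1 were higher in every pair, Cyp2c24 and Cyp4f40 were lower in every pair, and Cyp2d5 and Cyp4f6 differed in direction between pairs. The Sult1 median of -0.22 turned to between 0.09 and 0.30 without FDG-decreased replicate 1, FDG-decreased replicate 3 or FDG-increased replicate 2. With limma and no pairing, 0 of 61 enzymes passed an adjusted p of 0.05, as did 0.0% of all genes, and 2 enzymes (Cyp2b1 and Gsta5) passed an unadjusted p of 0.05, beside 1.02% of all genes. Same-numbered libraries of the 2 groups deviated together, so the fit with the replicate number as a block stands beside it. With the block, limma called 6 of 61 enzymes (9.84%) at an adjusted p of 0.05, beside 1.14% of all genes. The 5 higher with FDG decreased were Cyp2b1, Cyp2j3, Cyp2j4, Cyp3a18 and Cyp4b1 (0.447% of all genes were called higher), and the lower one was Ugt1a2 (0.689% of all genes).

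The number of calls with the block fell to 1, Cyp2b1, without the first pair or without the floor on low values, and was 10 and 8 without the second and the third pair. Libraries of the first pair shared lane 7 and those of the second lane 4. Those of the third lay on lanes 5 and 4 and had a correlation of 0.768 over genes. FDG-decreased replicate 2 and FDG-increased replicate 3, which shared lane 4 but no number, had a correlation of -0.13. Deviations from the mean of 3 libraries sum to 0, which pushes values of unlike numbers below 0 where like numbers correlate. The part of lane was therefore not tested by these values.

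Cyp2b1, the classic phenobarbital-inducible P450 of the rat, was at 67.4, 43.7 and 9.498 FPKM in FDG-decreased replicates 1, 2 and 3, against 5.57, 11.04 and 0.704 FPKM in FDG-increased replicates 1, 2 and 3. It was higher with FDG decreased in all 3 pairs, while the groups overlapped through FDG-decreased replicate 3. The log2 difference was 2.63 (SE 0.878 without the block, 0.255 with it), with adjusted p = 1 in limma without the block and 0.00422 with it. Over the alternatives to the blocked fit its adjusted p in limma lay between 3.12e-30 and 0.0237, the lowest of them from fits on 2 pairs.

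Cyp2j3 and Cyp2j4 belong to a subfamily that makes epoxides from arachidonic acid. Cyp2j4 stood at 75.6, 126.5 and 34.2 FPKM in FDG-decreased replicates 1, 2 and 3, against 35.8, 73.6 and 19.9 FPKM in FDG-increased replicates 1, 2 and 3. Cyp2j3 stood at 36.7, 118.7 and 36.7 FPKM in FDG-decreased replicates, against 24.9, 62.4 and 19.3 FPKM in FDG-increased ones. Each FDG-decreased library was above its FDG-increased counterpart and the groups overlapped, because replicate 2 was the highest library on both sides. The log2 differences were 0.86 (SE 0.136) for Cyp2j4 and 0.78 (SE 0.141) for Cyp2j3 with the block, with adjusted p of 0.0141 and 0.0271 in limma, and adjusted p = 1 for both without it. Their adjusted p over the alternatives to the blocked fit ran from 1.02e-04 to 0.274 for Cyp2j4 and from 0.00473 to 0.133 for Cyp2j3.

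The Cyp3a genes encode the P450s that handle the widest range of oral drugs, and Cyp3a62 is known as the main Cyp3a of rat intestine. Their summed level was 519.3 ± 412 FPKM with FDG decreased and 330.6 ± 266 FPKM with FDG increased (SD, n = 3 each), and 3 of 3 tested members were higher with FDG decreased in every pair. Cyp3a18 was at 44.8, 130.0 and 12.1 FPKM in FDG-decreased replicates 1, 2 and 3, against 24.2, 88.7 and 5.51 FPKM in FDG-increased replicates 1, 2 and 3. Its values spanned the same wide range in both groups, with replicate 3 lowest. The log2 difference of 0.81 (SE 0.146 with the block) had an adjusted p of 0.0271 in limma with the block, 1 without it, and 5.00e-04 to 0.304 over the alternatives. Cyp3a62 was at 105.1, 400.1 and 72.1 FPKM in FDG-decreased replicates, against 79.5, 234.8 and 44.0 FPKM in FDG-increased ones. Its log2 difference of 0.62 had an adjusted p of 0.0663 in limma with the block. Cyp3a9 was at 285.7, 436.9 and 71.1 FPKM in FDG-decreased replicates and 149.3, 302.7 and 63.0 FPKM in FDG-increased ones, a log2 difference of 0.54 with an adjusted p of 0.197.

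Among the Cyp4 genes, whose products hydroxylate fatty acids, Cyp4b1 was called. It stood at 161.3, 93.1 and 9.73 FPKM in FDG-decreased replicates 1, 2 and 3, against 103.3, 57.1 and 5.46 FPKM in FDG-increased replicates 1, 2 and 3. All 3 pairs moved the same way, and replicate 3 was far below the other libraries in both groups. The log2 difference of 0.69 (SE 0.131 with the block) had an adjusted p of 0.0360 in limma with the block, 1 without it, and 0.00490 to 0.332 over the alternatives. After moving all libraries to the same median or quantile normalization, Cyp4b1 was no longer called, with adjusted p of 0.0530 and 0.0655 in limma with the block. Cyp1a1, the target of the aryl hydrocarbon receptor that oxidises polycyclic hydrocarbons, was at 20.5, 1.64 and 2.47 FPKM in FDG-decreased replicates and 7.39, 2.63 and 0.0562 FPKM in FDG-increased ones, which differed in direction between pairs.

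**Figure D2:**
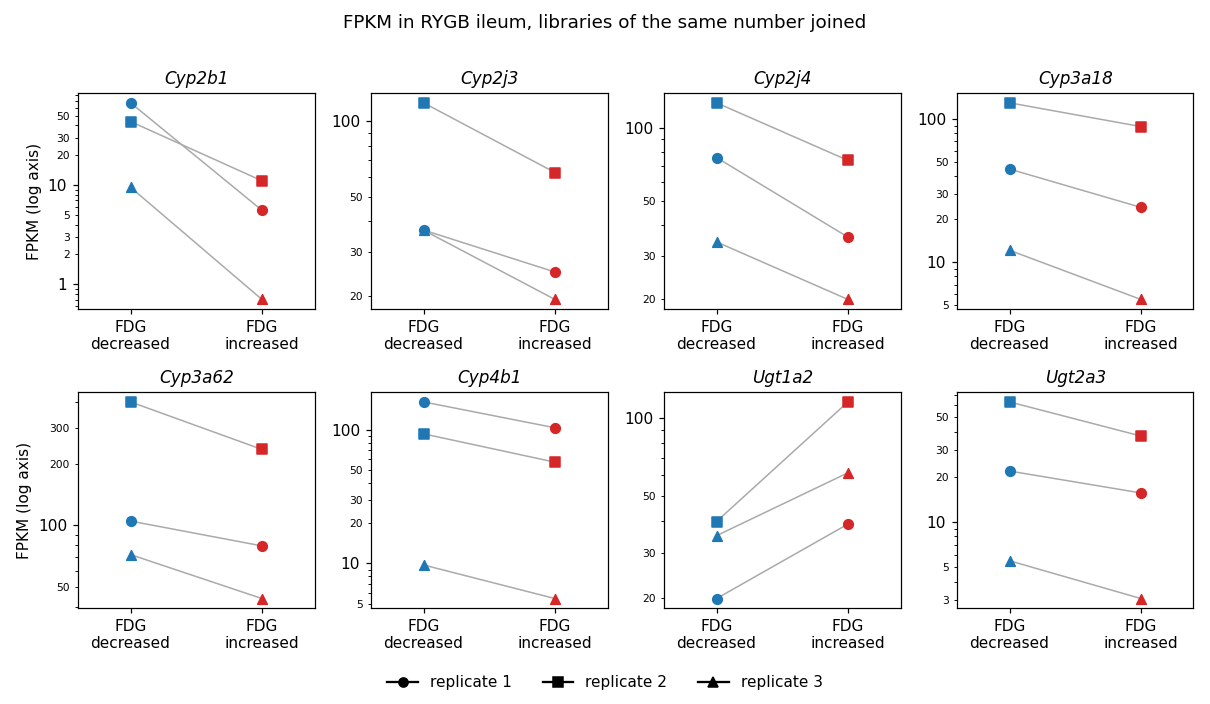
FPKM (log axes, a range per panel) of the 6 enzymes called with the replicate block and of Cyp3a62 and Ugt2a3 in FDG-decreased and FDG-increased ileum, with lines joining libraries of the same number. Ugt1a2 slopes upward to FDG increased in all 3 pairs and the other 7 genes slope downward, while libraries of a group differ more than the 2 libraries of a pair in most panels.

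The glucuronosyltransferases split. Ugt1a2, made from one of the alternative first exons of the Ugt1a locus, was at 19.9, 39.7 and 35.0 FPKM in FDG-decreased replicates 1, 2 and 3, against 38.8, 115.9 and 61.4 FPKM in FDG-increased replicates 1, 2 and 3. It was lower with FDG decreased in all 3 pairs, and the groups overlapped only at FDG-decreased replicate 2 and FDG-increased replicate 1. The log2 difference was -1.08 (SE 0.163 with the block), with an adjusted p of 0.0108 in limma with the block, 1 without it, and 2.66e-08 to 0.0898 over the alternatives. Ugt1a5, read from another first exon of the locus, went the other way at 3.39, 6.94 and 7.15 FPKM in FDG-decreased replicates, against 1.59, 4.04 and 4.10 FPKM in FDG-increased ones. Its log2 difference of 0.70 did not pass (adjusted p = 0.0829 in limma with the block). Ugt1a1, the enzyme that conjugates bilirubin, was at 179.0, 609.2 and 157.1 FPKM in FDG-decreased replicates and 224.3, 623.4 and 210.5 FPKM in FDG-increased ones, a log2 difference of -0.26 with an adjusted p of 0.643. Ugt2a3, whose human counterpart conjugates bile acids, was at 21.8, 63.1 and 5.51 FPKM in FDG-decreased replicates and 15.6, 37.4 and 3.08 FPKM in FDG-increased ones, a log2 difference of 0.62 with an adjusted p of 0.0829.

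The sulfotransferases gave no call. Sult1b1, which acts on phenols and thyroid hormones, was at 45.8, 300.03 and 61.7 FPKM in FDG-decreased replicates, against 40.4, 200.8 and 58.7 FPKM in FDG-increased ones. Sult2b1, which sulfates cholesterol, was at 153.0, 85.5 and 81.0 FPKM in FDG-decreased replicates, against 152.5, 109.8 and 69.1 FPKM in FDG-increased ones. Both genes varied more within a group than between the groups.

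Glutathione transferases of the alpha class (Gsta) conjugate electrophiles and reduce lipid peroxides, and all 5 had a higher mean with FDG decreased, with a median log2 difference of 0.36. Gsta5 was at 126.0, 187.5 and 393.9 FPKM in FDG-decreased replicates 1, 2 and 3, against 79.2, 132.3 and 65.0 FPKM in FDG-increased replicates 1, 2 and 3. FDG-decreased replicate 3 was the highest library, and FDG-decreased replicate 1 lay inside the FDG-increased range. The log2 difference was 1.25 (SE 0.513), with adjusted p = 1 in limma without the block and 0.652 with it. Gsta2 was at 55.9, 45.5 and 85.4 FPKM in FDG-decreased replicates, against 35.3, 54.0 and 17.1 FPKM in FDG-increased ones. Gstm2, of the mu class, was the only tested enzyme whose groups did not overlap, at 78.1, 96.4 and 91.5 FPKM with FDG decreased, against 69.1, 63.0 and 60.2 FPKM with FDG increased, where 1.95% of all genes did not overlap in that direction. Its log2 difference of 0.46 had an adjusted p of 0.237 in limma with the block. No tested enzyme was lower without overlap, where 1.26% of all genes were.

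By pairs alone, 23 of 61 enzymes (37.7%) were higher with FDG decreased in all 3 pairs, against 17.2% of all genes, and 7 of 61 (11.5%) were lower in all 3, against 12.7% of all genes. The 7 were Cyp2c24, Cyp4f40, Gstm7, Gsto1, Sult1a1, Ugt1a1 and Ugt1a2. Other features of the tissue moved with these values. Upper-intestine markers (5 of 6 found) summed to 39.0, 48.8 and 55.01 FPKM in FDG-decreased replicates 1, 2 and 3, against 15.05, 35.6 and 15.5 FPKM in FDG-increased replicates 1, 2 and 3, where Gata4 was at 0 in replicate 1. The sum of enterocyte markers (8 of 9 found), mostly Fabp1 and Fabp2, was higher with FDG decreased in every pair. It was 19456, 19563 and 8718 FPKM in FDG-decreased replicates, against 13046, 16464 and 5086 FPKM in FDG-increased ones. Vil1, Alpi, Fabp1, Fabp2 and Apoa4 were higher with FDG decreased in every pair. Epcam and Krt20 were lower in every pair, and Cdh17 was higher in the second pair alone. The sum of ileum markers (5 of 6 found), mostly Fabp6, was lower in every pair. It was 16218, 19362 and 5631 FPKM in FDG-decreased replicates, against 19445, 24126 and 7646 FPKM in FDG-increased ones. Fabp6, Slc51a and Nr1h4 were lower with FDG decreased in every pair, and Slc10a2 in all but the second. Cubn was higher in every pair, at 80.3, 126.7 and 20.3 FPKM with FDG decreased, against 26.8, 36.6 and 2.13 FPKM with FDG increased. Replicate 3 of both groups had the highest smooth muscle markers (6 of 6 found), at 1437 FPKM with FDG decreased and 1873 FPKM with FDG increased, against 746 to 1027 FPKM in the other 4 libraries. For 33 of 61 enzymes (54.1%) replicate 3 was the lowest library of both groups, against 35.4% of all genes. The part of these cell types in the enzyme values was not tested, and fewer cells of a type cannot be told apart from less RNA per cell.

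**Figure D3:**
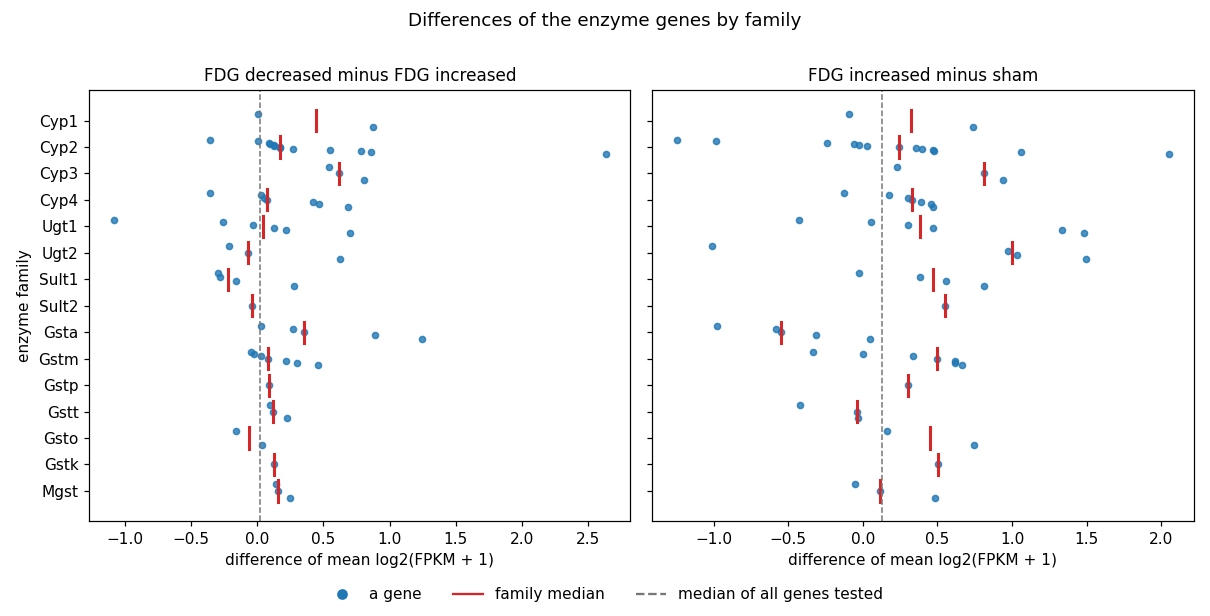
Difference of mean log2(FPKM + 1) for each tested enzyme (points), with family medians (red) and the median of all genes tested (dashed), for FDG decreased minus FDG increased on the left and FDG increased minus sham on the right. Cyp3 and Gsta points lie right of 0 on the left, and 4 of 5 Gsta points lie left of 0 on the right, a position that the median does not keep without sham replicate 1.

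The second comparison set FDG-increased ileum after RYGB beside ileum after the sham operation. It holds no FDG-decreased ileum, so it asks how FDG-increased ileum, and not all bypassed ileum, differs from sham ileum. By the labels all 3 sham samples lay on lane 7, and FDG-increased samples 1, 2 and 3 on lanes 7, 4 and 4. Lane and group can therefore not be fully told apart here. Glucuronosyltransferases were higher with FDG increased in 8 of 10 tested members, with a median log2 difference of 0.72, against 64.7% of all genes and a median of 0.13. That median of all genes is itself a shift of the table, and moving every library to the same median lowered the enzymes' overall median to 0.19 in place of 0.32. No enzyme passed the test: limma called 0 of 62 at an adjusted p of 0.05, beside 0.037% of all genes. At an unadjusted p of 0.05 it gave 7 enzymes (11.3%), all higher, beside 7.84% of all genes in either direction and 6.15% higher. The groups did not overlap for 13 enzymes (21.0%), all higher with FDG increased, beside 10.7% of all genes, and for 0 enzymes in the lower direction, beside 4.44%. The 7 enzymes were Ugt2b1, Ugt2a3, Cyp2c24, Ugt1a1, Cyp2d1, Ugt2b10 and Gstm7. Enterocyte markers (8 of 9 found) summed to 9355, 13346 and 16799 FPKM in the FDG-increased libraries, against 20284, 6810 and 6531 FPKM in sham replicates 1, 2 and 3, so sham replicate 1 was above and the other sham libraries were below the FDG-increased range. In the 3 lists that follow the sums of the groups did not overlap within that table. Ileum markers (5 of 6 found) summed to 17144, 19891 and 24617 FPKM in the FDG-increased libraries, against 269, 8737 and 11899 FPKM in sham replicates. Fabp6 made up most of the FDG-increased sums. By mean log2(FPKM + 1) the ileum list overlapped, at 7.83 in FDG-increased library 1 and 7.86 in sham replicate 3. Cubn overlapped too, at 14.5, 27.4 and 37.3 FPKM in FDG-increased libraries, against 73.2, 32.0 and 28.6 FPKM in sham replicates. T and NK cell markers (7 of 7 found) summed to 84.0 to 144 FPKM in FDG-increased libraries and 32.5 to 61.8 FPKM in sham libraries. Macrophage markers (5 of 6 found) summed to 68.5 to 110.1 FPKM in FDG-increased libraries and 27.8 to 47.0 FPKM in sham libraries. The FDG-increased library that stands in the first table alone went otherwise, before scaling. It summed to 16.9 FPKM for T and NK cells and 8.76 FPKM for macrophages, below all sham libraries. Its ileum markers summed to 7646 FPKM, inside the sham range through replicate 1 alone and below sham replicates 2 and 3. The part of these cell types in the enzyme values was not tested.

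Ugt1a1 was at 317.4, 229.5 and 636.1 FPKM in the FDG-increased libraries, against 198.4, 124.3 and 84.5 FPKM in sham replicates 1, 2 and 3. All FDG-increased libraries were above all sham libraries, with a log2 difference of 1.48 (SE 0.472) and an adjusted p of 0.523 in limma. The FDG-increased library that stands in the first table alone was at 215.0 FPKM once scaled to the second, also above the sham range. Ugt1a2, lower with FDG decreased in the first comparison, was at 44.7, 39.7 and 118.3 FPKM in FDG-increased libraries, against 57.9, 17.7 and 11.6 FPKM in sham replicates. Sham replicate 1 lay inside the FDG-increased range there, and the log2 difference of 1.33 had an adjusted p of 0.652 in limma.

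Ugt2a3 was at 32.0, 15.96 and 38.1 FPKM in FDG-increased libraries, against 11.1, 12.9 and 4.76 FPKM in sham replicates 1, 2 and 3, a log2 difference of 1.498 (SE 0.425) with an adjusted p of 0.473 in limma. That library of the first table alone was at 3.15 FPKM on the same scale, below all sham libraries. Ugt2b10 was at 237.5, 361.4 and 604.4 FPKM in FDG-increased libraries, against 167.2, 201.3 and 177.9 FPKM in sham replicates. Its remaining FDG-increased library was at 132.8 FPKM, again below the sham range, and the log2 difference was 1.04 with an adjusted p of 0.605. Ugt2b1, which conjugates morphine in the rat, was low at 1.21, 1.44 and 2.40 FPKM in FDG-increased libraries, against 0.152, 0.592 and 0.330 FPKM in sham replicates. The log2 difference of 0.97 (SE 0.250) had an adjusted p of 0.439 in limma, the smallest among the enzymes.

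Cyp2c24, a P450 of the Cyp2c subfamily, was at 19.1, 59.0 and 103.0 FPKM in FDG-increased libraries, against 5.99, 13.5 and 16.3 FPKM in sham replicates 1, 2 and 3. The groups did not overlap, although the lowest FDG-increased library was near the highest sham library. The log2 difference of 2.05 (SE 0.587) was the largest of the enzymes and had an adjusted p of 0.473 in limma. That library of the first table alone was at 11.03 FPKM on that scale, inside the sham range through replicate 1 alone and below sham replicates 2 and 3. Cyp2d1 was at 5.10, 11.9 and 7.33 FPKM in FDG-increased libraries, against 1.87, 3.24 and 4.93 FPKM in sham replicates, while the remaining library was at 0.563 FPKM. Over all 62 enzymes, that remaining FDG-increased library lay inside the sham range for 30, above it for 8 and below it for 24. That range includes sham replicate 1, and these counts were not taken without it.

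**Figure D4:**
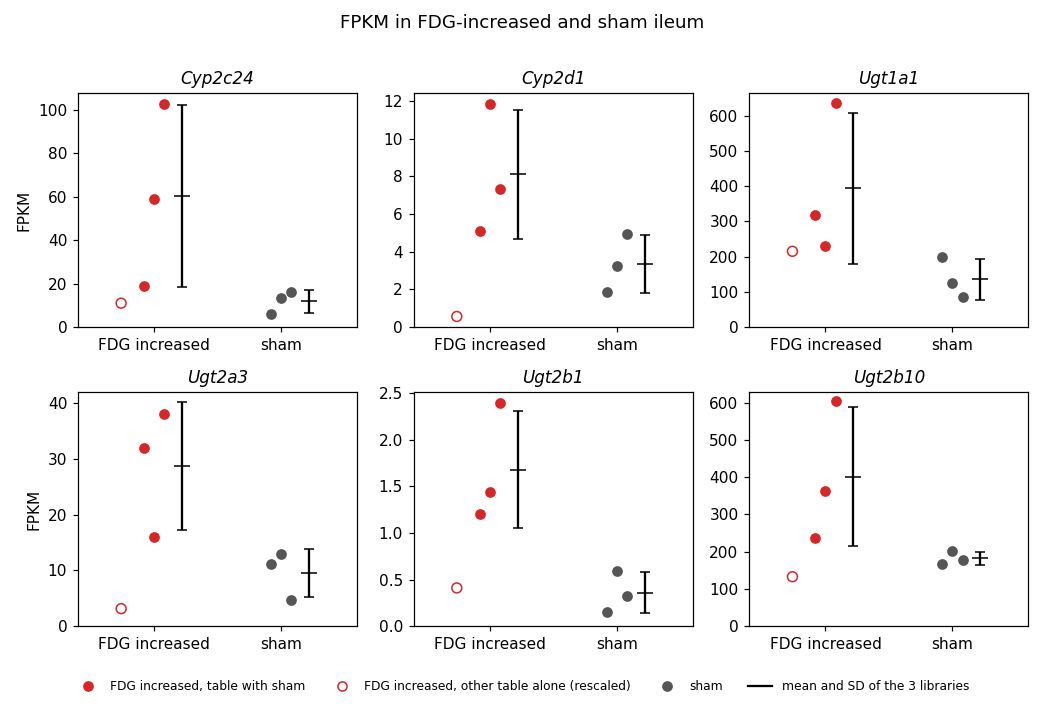
FPKM of 6 enzymes in FDG-increased libraries of the second table (filled red), the library of FDG-increased ileum held by the first table alone, after scaling (open red), and sham libraries (grey), with mean and SD of the 3 libraries of each group. Filled red points lie above all grey points in each panel, and the open point lies among or below the grey points in every panel but that of Ugt1a1.

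Sham replicate 1 shaped the comparison of the alpha class. Gsta5 was at 111.3, 81.0 and 135.0 FPKM in FDG-increased libraries, against 1117, 173.5 and 47.7 FPKM in sham replicates 1, 2 and 3. Gsta2 was at 31.8, 36.1 and 55.1 FPKM in FDG-increased libraries, against 319.4, 37.8 and 9.498 FPKM in sham replicates. The log2 difference was -0.97 for Gsta5 and -0.31 for Gsta2 with all sham libraries, and 0.23 and 1.02 without replicate 1. The median of the Gsta family was -0.55 with that library and 0.23 without it. In all, 15 of 62 enzymes were over 2 times both other sham libraries in replicate 1, against 4.34% of all genes, and 8 were below both by the same factor, against 3.88%. With the floor taken over the other 5 libraries alone, 13 of 60 were over 2 times both, against 4.2% of all genes. Among the 15 were Cyp2b1 at 113.6 FPKM, against 14.8 and 1.04 FPKM in sham replicates 2 and 3, and Cyp2j4 at 147.7 FPKM, against 34.1 and 20.0 FPKM. Cyp2s1 and Ugt2b17, picked after their values were seen, passed the floor of the second table only through that library, at 11.96 and 7.52 FPKM there and at most 0.807 FPKM in the other sham libraries. Without replicate 1, limma still called 0 enzymes, with 15 at an unadjusted p of 0.05 beside 9.61% of all genes. Enzymes without overlap then numbered 26 higher, beside 22.6% of all genes, and 2 lower (Cyp2r1 and Gsta1), beside 8.24%. The part of upper-intestine tissue in that library's enzyme values was not tested.

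Cyp3 members also had higher means with FDG increased than in sham ileum, with a median log2 difference of 0.81 over 3 genes and no call. Cyp3a62 was at 80.6, 81.3 and 239.5 FPKM in FDG-increased libraries, against 75.8, 58.3 and 49.6 FPKM in sham replicates 1, 2 and 3. These libraries did not overlap, and the log2 difference of 0.94 had an adjusted p of 0.667 in limma, while the library of the first table alone was at 45.0 FPKM, below all sham libraries. Cyp2 members were higher in 8 of 13, with a median of 0.24 that turned to -0.03 after quantile normalization. Mgst members were higher in 2 of 3, with a median of 0.11 that turned to -0.01 after a median shift and -0.31 after quantile normalization. Gstp1 was 0.30 higher on the log2 scale and 0.11 lower (-0.11) after quantile normalization. Gsto1, which reduces dehydroascorbate, was at 245.0, 219.0 and 395.4 FPKM in FDG-increased libraries, against 191.1, 167.9 and 140.5 FPKM in sham replicates, a log2 difference of 0.74 with an adjusted p of 0.663, while the library of the first table alone was at 145.5 FPKM, inside the sham range.

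FDG-decreased and sham ileum share no table, so their values are set side by side on the scale of the second table (factor 1.0217) with no test. The ratio of mean FPKM, FDG-decreased over sham, had a median of 1.31 over 60 enzymes and 1.13 over all genes tested in both tables, and was above 1 for 46 of 60 enzymes and for 68.4% of all genes. Without sham replicate 1 the median was 1.71 over the enzymes, against 1.16 over all genes, and 54 of 60 were above 1, as were 71.9% of all genes. All FDG-decreased libraries lay above all sham libraries for 3 enzymes (3.43% of all genes), and below for 0 (1.69% of all genes). The 3 were Cyp1a1, Cyp2j3 and Gstm3, the last named after its values were seen. Cyp2j3 was at 37.5, 121.3 and 37.5 FPKM in FDG-decreased replicates 1, 2 and 3, against 32.0, 34.9 and 22.9 FPKM in sham replicates. Cyp1a1 was at 21.0, 1.67 and 2.52 FPKM in FDG-decreased replicates, against 0.671, 1.52 and 1.66 FPKM in sham replicates, so its ratio of 6.54 came from 1 library. Before scaling, its FDG-decreased replicate 2 was at 1.636 FPKM, below sham replicate 3 at 1.657 FPKM. Its place among the 3 therefore rests on the scaling factor, near the floor. Without sham replicate 1, the count above was 16 (12% of all genes) and the count below was 1, Gsta1 (3.92% of all genes). The ratio of Gsta5 was 0.540 with that library and 2.18 without it, and that of Cyp2b1 was 0.952 with it and 5.19 without it.

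Genes around the enzymes were read from lists of sensors, electron donors, cofactor supply, carriers and further enzymes. Between FDG-decreased and FDG-increased ileum, limma without the block called 0 genes of any list. At an unadjusted p of 0.05, 2 genes passed, both among the 34 further enzymes, beside 1.02% of all genes. They were the carboxylesterases Ces2a and Ces2j. Ces2j had a log2 difference of 0.875 and an adjusted p of 0.0663 in limma with the block. Of 15 sensors and partners, 7 had a higher and 8 a lower mean with FDG decreased (median -0.03), and 0 were called with the block. Nr1i2, the sensor of drugs and bile acids, was at 38.0, 30.2 and 18.4 FPKM in FDG-decreased replicates 1, 2 and 3, against 33.9, 24.9 and 11.5 FPKM in FDG-increased ones, a log2 difference of 0.35. Ahr differed by 0.11, Nfe2l2 by -0.17 and the reductase Por by 0.08, with adjusted p of 0.930, 0.833 and 0.973 in limma with the block. Of 34 other drug-metabolising enzymes, 24 had a higher and 10 a lower mean with FDG decreased (median 0.22), where 55.2% of all genes were higher. With the block 2 were called, both higher, beside 1.14% of all genes called and 0.447% called higher. The carboxylesterase Ces2a, which splits ester drugs, was at 26.7, 29.6 and 40.5 FPKM in FDG-decreased replicates, against 15.9, 16.2 and 14.7 FPKM in FDG-increased ones. The groups did not overlap, and the log2 difference of 0.98 (SE 0.164) had an adjusted p of 0.0196 in limma with the block. Fmo4, a flavin monooxygenase, was at 20.2, 33.8 and 15.96 FPKM in FDG-decreased replicates, against 12.7, 20.4 and 7.73 FPKM in FDG-increased ones, a log2 difference of 0.76 with an adjusted p of 0.0359. The block called 0 genes in the other 4 lists. Of them, 8 of 13 carriers, 8 of 12 genes of cofactor supply, 4 of 6 electron donors and 3 of 9 further targets of Ahr and Nrf2 had a higher mean with FDG decreased.

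Between FDG-increased and sham ileum, limma called 0 genes of these lists, and 10 of 13 carriers had a higher mean with FDG increased (median 0.46), against 64.7% of all genes, and 4 passed an unadjusted p of 0.05, against 7.84% of all genes. The efflux pump Abcb1a was at 156.1, 310.4 and 533.4 FPKM in FDG-increased libraries, against 66.5, 56.1 and 111.1 FPKM in sham replicates 1, 2 and 3, a log2 difference of 1.97 with an adjusted p of 0.409. Abcg2, another efflux pump of the brush border, was at 149.9, 193.0 and 366.4 FPKM in FDG-increased libraries, against 60.7, 66.1 and 114.6 FPKM in sham replicates, a log2 difference of 1.497 with an adjusted p of 0.473. Neither gene's groups overlapped in that table, but the library of the first table alone was at 59.2 FPKM for Abcb1a, inside the sham range, and at 38.7 FPKM for Abcg2, below it. Of 9 further targets of Ahr and Nrf2, 8 had a higher mean (median 0.54), led by Osgin1 at 19.5, 28.3 and 23.6 FPKM in FDG-increased libraries, against 9.49, 7.78 and 10.1 FPKM in sham replicates (log2 difference 1.28, adjusted p = 0.210 in limma). A higher mean was also seen for 12 of 15 sensors, 5 of 6 electron donors, 8 of 12 genes of cofactor supply and 25 of 35 other enzymes, where the shares of all genes that were higher (64.7%) and that passed an unadjusted p (7.84%) are those given for the carriers. In these lists 1, 1, 2 and 6 genes passed an unadjusted p of 0.05, all higher with FDG increased but the carboxylesterase Ces1d. Ces1d was at 1.44, 2.14 and 0.00626 FPKM in FDG-increased libraries, against 5.81, 24.97 and 3.39 FPKM in sham replicates 1, 2 and 3. Its log2 difference was -2.22, with an adjusted p of 0.481 in limma. Papss1, which makes the sulfate donor, had a log2 difference of 1.26 with an adjusted p of 0.441, and Nr1h4, the bile acid receptor FXR, one of 1.239 with an adjusted p of 0.580. Nr1i2 differed by 0.12, Ahr by 0.01, Nfe2l2 by 0.85 and Por by 0.40, with adjusted p of 0.950, 0.995, 0.669 and 0.894 in limma.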

How the data were processed

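Values were used as the authors deposited them, as FPKM per gene and library in 2 tables that were scaled separately, per the file headers. Named in the submitters' processing notes, without role or order, are DESeq2 1.24.0, Cuffdiff, Cufflinks 2.2.1, STAR 2.6.0a and bcl2fastq 1.8.4. The same notes name hg19, a human build, while the symbols are those of rat, so no coordinates came from the authors' files. Read depth is unknown. The sum of FPKM per library was 465697 to 864511, and 10332 to 10892 genes reached 1 FPKM. Groups came from titles and treatment labels, and 0 sample columns were left unused. Columns of FDG-increased ileum shared by the tables were recognised by equal values within 1% for 99.985% and 99.941% of genes, after factors of 1.023 and 1.0204.

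From these values log2(FPKM + 1) was fitted with limma 3.58.1 in R 4.3.3 (trend and robust empirical Bayes, Benjamini-Hochberg adjustment over all genes averaging 1 FPKM or more in a table, threshold 0.05, no covariate), after a test on simulated data. Leaving out 25 symbols turned into dates left 17120 genes, and 108 of 110 enzymes were current RefSeq symbols. In the first table, libraries of the same number departed from their group's mean in the same way (correlations over genes of 0.845, 0.763 and 0.768). The replicate numbers of the labels were therefore taken as pairs there, and the fit with the replicate block is given beside the main one. Other numbers gave -0.13 to -0.594, in part because deviations from a mean of 3 libraries sum to 0. Members and lists were chosen with earlier results of these data known.

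Named genes were drawn from those past the adjusted threshold, the 12 members of smallest p and the 2 most abundant of each family. The 3 of smallest p of each list, and Nr1i2, Ahr, Nfe2l2 and Por, were eligible too. Not every eligible gene is printed. Enzymes called with the block alone, those named for pair counts, for sham replicate 1 or for a range, and genes of a list named with them were picked after their values were seen. Alternatives were a pseudocount of 0.1, no floor, a median shift, quantile normalization, the replicate block, lanes, and leaving out each library.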

Additional observations from a re-analysis of the deposited data

How the results depend on the processing

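Without the replicate block, 0 enzymes were called in both comparisons under every alternative that kept more than 1 library in each group. These include each left-out library, and lanes 4 and 7 with lane as a term (3 enzymes at an unadjusted p of 0.05). Lane 7 alone against sham sets 1 FDG-increased library, assumed to vary like the sham libraries, against 3. It says little of stability, and its calls are not given. By its values, the FDG-increased column numbered 2 of the second table is the library numbered 1 of the first, labelled lane 7. The column numbered 1 of the second table matches none of the first, so its lane is unknown. With the replicate block, FDG-decreased against FDG-increased ileum gave 6 enzymes, and in settings chosen after seeing the data 6 with a pseudocount of 0.1, 1 with no floor, 5 after a median shift and 5 after quantile normalization, the 5 all among the 6. Leaving out pair 1, 2 or 3 gave 1, 10 and 8, and the 10 and the 8 each hold the 6. For FDG-increased against sham ileum the block called 1 enzyme, Cyp2c24 (adjusted p = 0.0262 in limma, 0.361% of all genes called). Same-numbered libraries gave correlations of 0.35, -0.498 and -0.246 there, so the samples share only a number. The block changed no other member's call, and in the lists of surrounding genes it called Ces1d, lower with FDG increased (adjusted p = 0.00604 in limma).

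The median over the enzymes lay between -0.04 and 0.37 over left-out libraries for FDG-decreased against FDG-increased ileum, turning negative without FDG-decreased replicate 2 (-0.01) or FDG-increased replicate 3, and between 0.15 and 0.47 for FDG-increased against sham. The median ratio of FDG-decreased over sham was 1.06 to 1.71 over left-out libraries. Over left-out libraries, Cyp4f37 ranged from -0.003 to 0.721 and Cyp4f1 from -0.494 to 1.132 with FDG decreased, each negative without FDG-increased replicate 3, and Cyp4f1 also without FDG-decreased replicate 1. Against sham, Sult1b1 ranged from -0.21 (without FDG-increased replicate 3) to 0.95, Gsta5 from -2.035 to 0.23, Gsta2 from -1.448 to 1.02, Gstt3 from -0.748 to 0.084 and Mgst3 from -0.46 to 0.56, the last 4 highest without sham replicate 1. Mgst1 was -0.31 after quantile normalization. The cause was not tested. The alternative without near-identical protein copies was not run, since protein sequences were not used here. With 3 libraries a group and FPKM alone, small differences and counting error could not be assessed.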
